A study of Mus musculus with 6 samples.

Results

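The 10 genes described here are transcription factors and Notch signalling genes of endothelial cells, the cells that line blood vessels. They were measured in the hearts of 3 sham mice and 3 mice with heat stroke (HS). The 10 are the SOXF factors Sox7, Sox17 and Sox18, the factors Erg and Tal1, the Notch ligand Dll4, the receptors Notch1 and Notch4, and the Notch targets Hes1 and Hey1. They were chosen by their levels in these same HS and sham hearts, so their differences between HS and sham are given as a description and carry no p. In the deposited transcript matrix 55 of 149132 rows carried a member's symbol. They summed to 10 of 57180 genes, and all 10 were among the 14717 genes that passed the filter on low counts. All mice were male C57BL/6N, an inbred strain, aged 6 to 8 weeks, and all were kept without food and water during the procedure. The HS mice were heated in a chamber set to 40 °C until their core reached 42 °C and then recovered at room temperature. The sham mice stayed at 22 to 25 °C, and humidity was 60 to 65% for both groups. Each heart gave 1 library of poly(A)-selected RNA. The paper's text does not say how long after heating the hearts were taken. The extraction note speaks of cell lines although the tissue label says heart.

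SOXF proteins, ERG and TAL1 bind DNA in endothelial cells and keep genes of vessel identity active. Notch signalling runs between neighbouring cells: a DLL or JAG ligand on one cell opens a NOTCH receptor on the next, the receptor's inner part is cut free and joins RBPJ in the nucleus, and genes such as HES and HEY are switched on. DLL4 and NOTCH1 are best known in vessels for arterial identity and for limiting sprouting.

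Estimated counts per heart came to 22098531 to 25855918. Levels are given as CPM, the count of a gene scaled to the library size times a TMM factor. The factors ran from 0.8916 to 1.073, so CPM do not add up to the same total in every heart. On this scale 1 count was worth 0.03609 to 0.05083 CPM. HS heart 3 stood apart. Its log2 values differed from those of each other heart by 0.468 to 0.57 on average over genes, and those of the other 5 hearts by 0.233 to 0.361. Ribosomal RNA of mitochondria made up 1.67 to 1.69% of counts in sham and 2.75 to 5.55% in HS. Myl7, the atrial myosin light chain, was abundant in HS hearts 1 and 3 and nearly absent elsewhere. It went from 20, 0 and 2 counts in sham to 18102, 4 and 9393 in HS. Endothelial RNA was clearly present in every heart. Pecam1, an adhesion molecule of endothelial junctions, ranged from 101 to 117 CPM in sham and from 91.1 to 181 CPM in HS, and Cdh5, VE-cadherin, from 106 to 120 and from 109 to 122 CPM. In the fit across all genes, edgeR's quasi-likelihood test called 9 genes at an adjusted p under 0.05 (0.0612% of those tested), 8 higher (0.0544%) and 1 lower (0.00679%) in HS. None of the 9 is among the 10 genes, which is a description only, since the 10 were chosen on this contrast. DESeq2 called more genes, 77 lower and 275 higher, and its calls for the 10 are not given.

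Of the 10 genes, only Sox18 lay below every sham heart in all 3 HS hearts, and Tal1 and Notch1 lay above every sham heart. The other 7 overlapped. Among all 14717 genes, 10.9% had all HS hearts below all sham hearts and 11.0% had them above, so the counts of 1 and 2 in 10 are not read further. The median log2 fold change was -0.18 over the 10 genes and 0.01 over all tested genes. The count of genes below depended on single hearts. It was 4 without HS heart 3 (Sox18, Erg, Notch4 and Hey1), 3 without HS heart 2 (Sox7, Sox18 and Dll4), 3 without sham heart 3 (Sox7, Sox18 and Hes1) and 2 without sham heart 1 (Sox18 and Erg). With column totals in place of TMM it was 2 (Sox18 and Erg). The share of all genes apart is given only for the fit with all hearts and TMM, and fewer hearts are apart more easily. These counts are therefore not read as a result about the 10 genes. Sox18 below and Tal1 and Notch1 above were found in each of these fits. Leaving out a heart cannot undo such a separation, short of a shift in scaling, so those fits are no support for it.

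**Figure D1:**
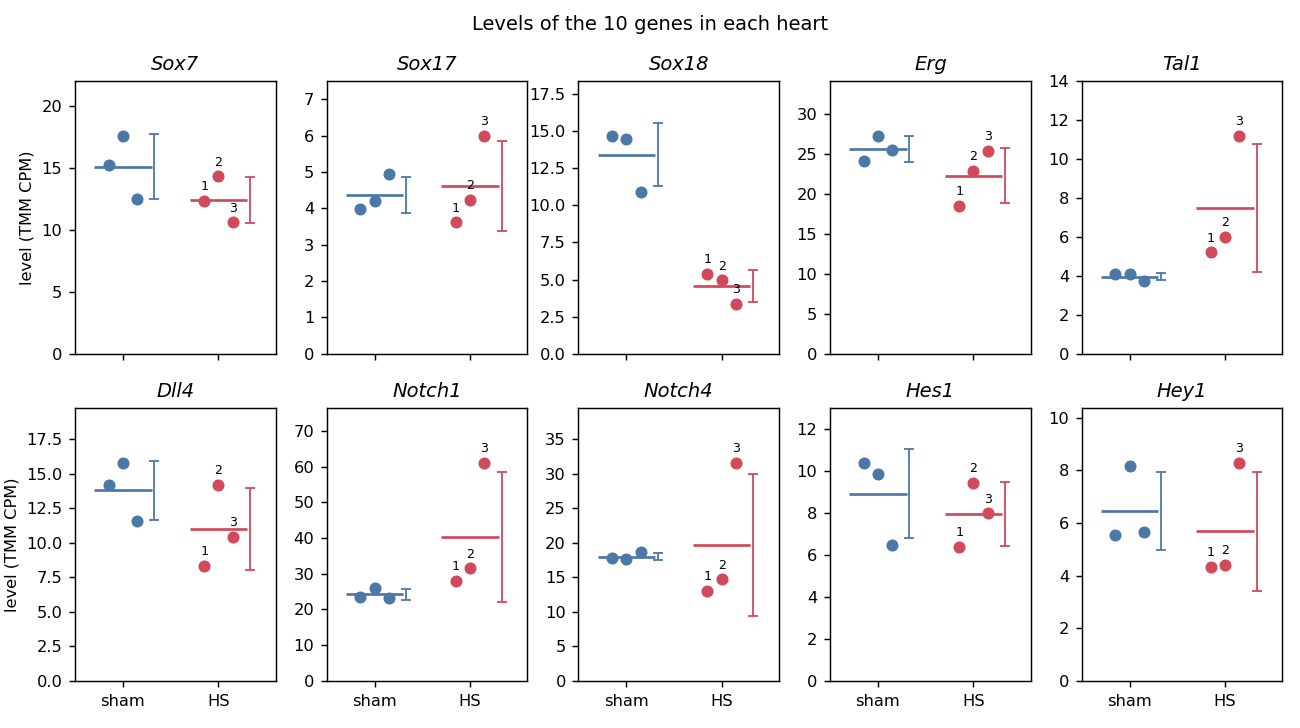
Level of each of the 10 genes in the 3 sham hearts (blue) and the 3 HS hearts (red, numbered 1 to 3), in TMM CPM on a linear axis from 0. Horizontal lines are group means and the bars beside them are ± 1 SD (n = 3). Sox18 lies at 3.36 to 5.38 CPM in the HS hearts against 10.9 to 14.7 CPM in the sham hearts, and HS heart 3 holds the highest level of Notch1, Notch4 and Tal1.

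Sox18 had the largest difference of the 10 genes. SOX18 acts in vessel and lymphatic development, and its gene (ENSMUSG00000046470) spans 181669836 to 181671640 of chromosome 2 (GRCm38, minus strand). The level was 14.7, 14.5 and 10.9 CPM in sham hearts 1 to 3 and 5.38, 4.94 and 3.36 CPM in HS hearts 1 to 3. These came from 369, 346 and 255 counts and from 149, 125 and 66 counts. Every HS heart was below every sham heart, with a clear gap between the groups. The means were 13.4 ± 2.12 and 4.56 ± 1.06 CPM (SD, n = 3 per group), a 2.94-fold lower level in HS. In edgeR the log2 fold change was -1.55 (standard error 0.21), and it ran from -1.69 to -1.38 over the other normalizations, filters, tools and sets of hearts tried. As the hearts were measured in bulk, fewer cells that express a gene and less RNA per cell cannot be told apart, here and for every gene below.

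For the other SOXF genes the groups overlapped. Sox7 (ENSMUSG00000063060, chromosome 14, 63943673 to 63950732), which acts beside Sox18 in vessel development, was at 15.2, 17.6 and 12.5 CPM in the sham hearts and 12.3, 14.3 and 10.6 CPM in the HS hearts. HS heart 2 was above sham heart 3, and the log2 fold change was -0.28 (standard error 0.17). Sox17 (ENSMUSG00000025902, chromosome 1, 4490931 to 4497354), a factor of arterial endothelium, was at 3.99, 4.20 and 4.94 CPM in the sham hearts and 3.61, 4.23 and 6.00 CPM in the HS hearts. Here HS heart 1 was the lowest and HS heart 3 the highest of the 6, and the log2 fold change was 0.07 (standard error 0.22). Per kb of exon the order in the sham hearts was Sox18 (8.27 CPM per kb), Sox7 (4.57) and Sox17 (0.917). In the HS hearts it was Sox7 (3.75 CPM per kb), Sox18 (2.81) and Sox17 (0.966).

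Ratios within a heart need no scaling factor between hearts, but they use the same counts as the levels above and are no further evidence. Sox18 over Sox7, in CPM per kb, was 1.97, 1.68 and 1.79 in sham and 0.892, 0.705 and 0.643 in HS, so Sox18 was the more abundant of the pair in each sham heart and the less abundant in each HS heart. Sox18 over Sox17 was 10.9, 10.2 and 6.53 in sham and 4.39, 3.44 and 1.65 in HS. Sox7 over Sox17 was 5.51, 6.08 and 3.65 against 4.92, 4.88 and 2.56, with the groups overlapping.

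**Figure D2:**
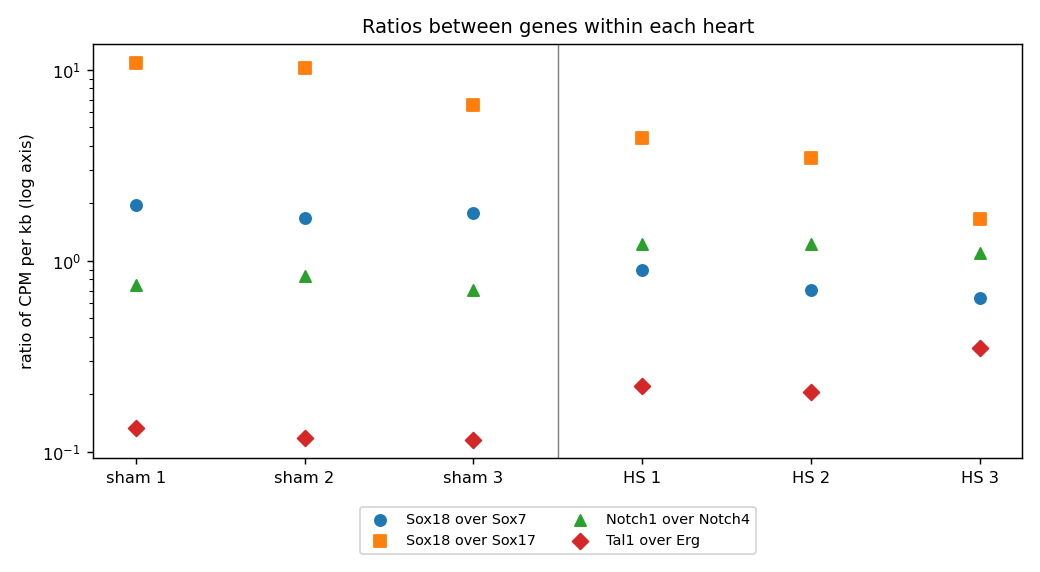
Ratio of one gene to another within each heart, in CPM per kb of exon, on a log axis, with the sham hearts left of the vertical line and the HS hearts right of it. Each point is 1 heart. The ratio of Sox18 to Sox7 lies between 1.68 and 1.97 in the sham hearts and between 0.643 and 0.892 in the HS hearts, and Notch1 over Notch4 moves from below 1 to above 1.

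Erg overlapped between the groups and Tal1 did not. ERG, an ETS factor found throughout the endothelium, holds junction genes such as Cdh5 active. Erg (ENSMUSG00000040732, chromosome 16, 95359169 to 95586593) was at 24.1, 27.3 and 25.5 CPM in the sham hearts and 18.5, 22.9 and 25.4 CPM in the HS hearts. HS hearts 1 and 2 lay below the sham hearts and HS heart 3 among them, with a log2 fold change of -0.20 (standard error 0.13). TAL1 is a basic helix-loop-helix factor of blood and endothelial progenitors that also works in red cell precursors. Tal1 (ENSMUSG00000028717, chromosome 4, 115056426 to 115071755) was at 4.07, 4.07 and 3.74 CPM in the sham hearts and 5.20, 6.00 and 11.2 CPM in the HS hearts. All HS hearts were above all sham hearts, and HS heart 3 was far above the other HS hearts. The means were 3.96 ± 0.192 and 7.48 ± 3.28 CPM, a 1.89-fold higher level, with a log2 fold change of 0.91 (standard error 0.29). Without HS heart 3 it was 0.50 (standard error 0.17). The ratio of Tal1 to Erg, in CPM per kb, was 0.133, 0.118 and 0.116 in sham and 0.222, 0.207 and 0.35 in HS.

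Genes of red cells were measured beside Tal1. Hbb-bs, an adult beta globin, was at 122, 122 and 52.3 CPM in the sham hearts and 60.7, 254 and 653 CPM in the HS hearts. The sum over 5 tested erythroid markers was 137 to 316 CPM in the sham hearts and 154, 616 and 1548 CPM in HS hearts 1 to 3. Gata1 and Klf1, factors that define red cell precursors, had at most 2 counts in any heart. Their part in the Tal1 difference was not tested.

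Sequences around the annotated starts were read for the genes above all sham hearts, Tal1 and Notch1, and for Notch4, the second receptor, since the study is about the AP-1 protein c-Jun and about heat. RefSeq windows of GRCm38.p6, 250 bases before to 50 after a start, were at hand for 5 of the 10 genes: Notch1, Notch4, Dll4, Tal1 and Erg, with 8 windows in all. Windows for Sox7, Sox17, Sox18, Hes1 and Hey1 were not used here. Searched on both strands were TGACTCA, the AP-1 site, GAANNTTC, a pair of heat shock units facing each other, and TGGGAA, the core of the RBPJ site. Of 32851 windows in the RefSeq table, 5.2%, 7.86% and 25.6% held them. Capitals mark the matches. Tal1 has 2 windows on the plus strand, chr4:115056176-115056475 and chr4:115057561-115057860. The first holds TGGGAA and the second GAATCTTC, which matches the heat shock letters.

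Tal1, first window: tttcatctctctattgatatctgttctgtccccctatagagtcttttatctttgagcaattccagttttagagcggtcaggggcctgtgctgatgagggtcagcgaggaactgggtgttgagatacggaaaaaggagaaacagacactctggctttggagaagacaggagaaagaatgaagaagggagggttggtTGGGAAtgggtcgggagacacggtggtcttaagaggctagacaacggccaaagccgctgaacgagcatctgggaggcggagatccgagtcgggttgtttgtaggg

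Tal1, second window: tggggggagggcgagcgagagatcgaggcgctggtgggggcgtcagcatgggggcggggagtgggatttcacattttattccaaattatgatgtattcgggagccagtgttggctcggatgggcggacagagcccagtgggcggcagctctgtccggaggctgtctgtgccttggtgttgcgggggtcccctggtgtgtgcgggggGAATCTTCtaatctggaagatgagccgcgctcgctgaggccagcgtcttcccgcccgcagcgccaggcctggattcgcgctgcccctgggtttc

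The Notch1 window, chr2:26503773-26504072 on the minus strand, holds none of the 3 motifs. The Notch4 window, chr17:34564045-34564344 on the plus strand, holds TGACTCA at bases 247 to 253 of the window. Dll4 had none, and of 3 Erg windows only 1 had a match, to the RBPJ letters. These are matches of letters in a window and say nothing of binding.

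Notch1: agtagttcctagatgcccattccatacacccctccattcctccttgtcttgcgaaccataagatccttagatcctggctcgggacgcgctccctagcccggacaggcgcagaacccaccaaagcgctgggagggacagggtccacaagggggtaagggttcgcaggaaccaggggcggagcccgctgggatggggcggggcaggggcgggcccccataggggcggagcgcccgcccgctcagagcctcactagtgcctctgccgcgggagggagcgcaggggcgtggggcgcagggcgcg

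Notch4: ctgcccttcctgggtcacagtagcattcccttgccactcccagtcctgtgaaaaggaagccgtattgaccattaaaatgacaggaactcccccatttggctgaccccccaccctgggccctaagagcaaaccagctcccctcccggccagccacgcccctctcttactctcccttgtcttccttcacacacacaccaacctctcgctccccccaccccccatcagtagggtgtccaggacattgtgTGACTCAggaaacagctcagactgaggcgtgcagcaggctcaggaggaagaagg

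Among the Notch genes, the ligand Dll4 (ENSMUSG00000027314, chromosome 2, 119325784 to 119335962) was at 14.2, 15.8 and 11.6 CPM in the sham hearts and 8.30, 14.2 and 10.4 CPM in the HS hearts. HS hearts 1 and 3 were below the sham hearts and HS heart 2 among them. The log2 fold change was -0.33 (standard error 0.21). A predicted gene on the other strand of Dll4, Gm14207, had 1 to 16 counts in any heart.

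Notch1, the receptor that binds DLL4 in endothelium, was higher in the HS hearts. Notch1 (ENSMUSG00000026923, chromosome 2, 26457903 to 26516663) was at 23.5, 25.9 and 23.1 CPM in the sham hearts and 28.1, 31.5 and 61.1 CPM in the HS hearts. Each HS heart was above each sham heart, but by little in HS hearts 1 and 2, whose log2 values exceeded the sham mean by 0.22 and 0.38 against 1.34 in HS heart 3. The means were 24.2 ± 1.53 and 40.3 ± 18.1 CPM, a 1.66-fold higher level. The log2 fold change was 0.73 (standard error 0.29), and without HS heart 3 it was 0.30 (standard error 0.09). A gene on the other strand, 0610009E02Rik, had 115 to 233 counts, and since it is not known here whether counting used the strand, the division of counts between it and Notch1 is uncertain.

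Notch4 (ENSMUSG00000015468, chromosome 17, 34564268 to 34588503), a receptor found mostly in endothelium, was at 17.8, 17.7 and 18.6 CPM in the sham hearts and 13.0, 14.7 and 31.6 CPM in the HS hearts. Its sham values were close together, while the HS hearts lay on both sides of them, HS hearts 1 and 2 below and HS heart 3 above. The log2 fold change was 0.12 (standard error 0.33) with all hearts and -0.38 (standard error 0.10) without HS heart 3. Both receptor genes have long transcripts, with 14232 exonic bases for Notch1 and 8061 for Notch4. Over all tested genes with at least 8 kb of exon (2497 genes), HS hearts 1 to 3 had median log2 differences of 0.12, 0.07 and 0.15 from sham, against -0.02, -0.01 and -0.04 for the 11944 shorter ones. The part of transcript length in the receptor values was not tested.

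The ratio of Notch1 to Notch4 did not overlap between the groups. Notch1 over Notch4, in CPM per kb, was 0.748, 0.829 and 0.703 in sham and 1.23, 1.22 and 1.10 in HS. HS heart 3, which was high for both, had a ratio close to that of HS hearts 1 and 2. Notch1 over its ligand Dll4 was 0.449, 0.445 and 0.542 in sham and 0.918, 0.60 and 1.59 in HS, again with no overlap. These ratios, too, restate the levels given above. The share of gene pairs whose ratios are apart was not computed, and 21.9% of all genes were apart in CPM alone.

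The 2 Notch targets showed no separation of the groups. HES1 and HEY1 are repressors that carry out much of the response to a Notch signal. Hes1 (ENSMUSG00000022528, chromosome 16, 30064384 to 30067796) was at 10.4, 9.86 and 6.48 CPM in the sham hearts and 6.39, 9.44 and 7.98 CPM in the HS hearts. Hey1 (ENSMUSG00000040289, chromosome 3, 8663359 to 8667256) was at 5.54, 8.18 and 5.67 CPM in the sham hearts and 4.33, 4.42 and 8.29 CPM in the HS hearts. The groups overlapped for both. The log2 fold changes were -0.17 (standard error 0.22) for Hes1 and -0.20 (standard error 0.30) for Hey1. Notch1 over Hey1, in CPM per kb, was 0.972, 0.727 and 0.937 in sham and 1.49, 1.63 and 1.69 in HS, and the groups did not overlap. Notch1 over Hes1 was 0.322, 0.376 and 0.511 in sham and 0.631, 0.478 and 1.10 in HS, and the groups overlapped. Both ratios reuse the levels given above and are no further evidence.

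**Figure D3:**
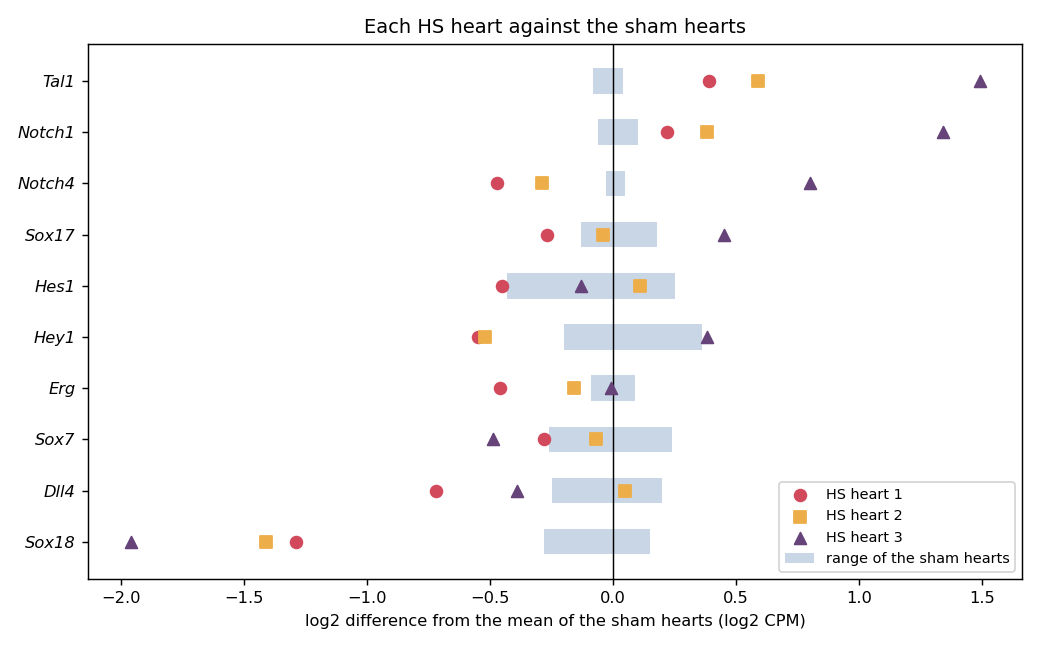
Log2 difference of each HS heart from the mean of the sham hearts for the 10 genes, ordered by fold change (horizontal axis, log2 CPM). Grey-blue bars span the 3 sham hearts. Sox18 lies at -1.29, -1.41 and -1.96, and HS heart 3 (triangles) stands to the right of the other HS hearts for 6 genes.

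HS heart 1 had the lowest level of the 3 HS hearts for 8 of the 10 genes, all but Sox7 and Sox18. HS heart 3 had the highest level for 6 (Sox17, Erg, Tal1, Notch1, Notch4 and Hey1) and the lowest for Sox7 and Sox18. Over the 10 genes the median log2 difference from sham was -0.46, -0.06 and 0.18 in HS hearts 1 to 3, while over all tested genes it was 0.01, 0.00 and -0.01. Sox18 was thus lowest in the heart where most of the others were highest.

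The median and the sum of the endothelial markers had the same order of HS hearts, which not every marker had. Over 24 endothelial markers the median log2 difference was -0.24, -0.14 and 0.16 in HS hearts 1 to 3, and their summed level was 3280 to 3425 CPM in sham and 2874, 3013 and 3773 CPM in HS. Set against the mean of these markers in the same heart, Sox18 was at -1.0, -1.19 and -2.13 in HS hearts 1 to 3 on the log2 scale. Tal1 was at 0.68, 0.81 and 1.31 and Notch1 at 0.52, 0.60 and 1.16. On this scale the groups were apart for these 3 genes and overlapped for the other 7. The share of all genes apart on this scale was not computed, and in CPM it was 21.9%. The values reuse the counts given above, so this count is not read further. Notch4 came to -0.18, -0.07 and 0.63, and Erg to -0.17, 0.06 and -0.18.

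The division of each gene's counts among its transcripts was not used to choose the genes and could be tested. Sox7, Sox18 and Dll4 had counts on 1 transcript only. In the other 7 the main transcript took over 93% of counts on average except in Sox17 and Erg. Sox17-201 held 81.0, 69.9 and 75.5% of Sox17 counts in sham and 62.0, 59.9 and 69.6% in HS, on 100 to 118 counts a heart. Each HS heart was below each sham heart, and the difference of -11.6 percentage points gave p = 0.1 in an exact permutation test (two-sided), the smallest value possible with 3 hearts per group, and 0.700 after Benjamini-Hochberg adjustment over 7 genes. Leaving out transcripts with under 10 counts, the difference was -11.0 percentage points (exact permutation p = 0.200). Erg-207 held 76.8 ± 10.4% of Erg counts in the sham hearts and 79.1 ± 0.494% in the HS hearts (exact permutation p = 0.70).

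The rest of the Notch pathway was described from a list of 45 other genes, of which 42 were tested. At an unadjusted p under 0.05 in edgeR, 5 were higher and 1 was lower in HS, where 8.83% of all genes were higher and 4.76% lower. The median log2 fold change was 0.11. With all hearts and the filter on low counts none passed an adjusted p under 0.05 in edgeR or limma-voom, and 2 did in DESeq2 (Notch2 and Maml2, both higher). In edgeR Notch2 also passed with no filter on low counts and without HS heart 2 or HS heart 3, and Jag1 passed without HS heart 2. Among receptors, Notch2 was at 18.3, 16.2 and 16.5 CPM in the sham hearts and 28.1, 23.8 and 33.3 CPM in the HS hearts, a log2 fold change of 0.74 (standard error 0.14, edgeR adjusted p = 0.181). Unlike Notch1, it was well above the sham range in all 3 HS hearts. Notch3, the receptor of smooth muscle, had a log2 fold change of 0.09.

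Among ligands, Jag1 had 9.88 to 10.7 CPM in sham and 16.5, 12.6 and 22.7 CPM in HS, with a log2 fold change of 0.73 (standard error 0.21, edgeR adjusted p = 0.278). It no longer passed the unadjusted threshold without HS hearts 1 and 3, where it was 0.28. That setting leaves HS heart 2 as the single HS library, so its spread is assumed to be that of the sham hearts, and calls made in it compare that heart with sham and not the conditions. In the nuclear complex, the co-activator Maml2 (log2 fold change 0.81, edgeR adjusted p = 0.254) and the co-repressor Spen (0.57, adjusted p = 0.274) were higher at the unadjusted threshold, while Rbpj itself was at -0.04. Lfng, a sugar transferase that tunes how receptors answer to DLL and JAG ligands, was the single gene lower. It was at 2.35, 2.64 and 2.96 CPM in the sham hearts and 0.938, 0.987 and 1.73 CPM in the HS hearts, a log2 fold change of -1.14 (standard error 0.30, edgeR adjusted p = 0.261). The 10 genes that process the receptor, among them the ADAM proteases and the gamma-secretase subunits, had none past the unadjusted threshold and a median of 0.06. The 3 tested target genes other than Hes1 and Hey1 were Hey2 (0.51), Heyl (0.00) and Nrarp (-0.26), and none of them passed. Notch3, Rbpj and these 3 are named for their roles, with their values already seen. Without HS heart 3 the list had 2 genes lower, and the share of all genes lower in that fit is not given here.

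**Figure D4:**
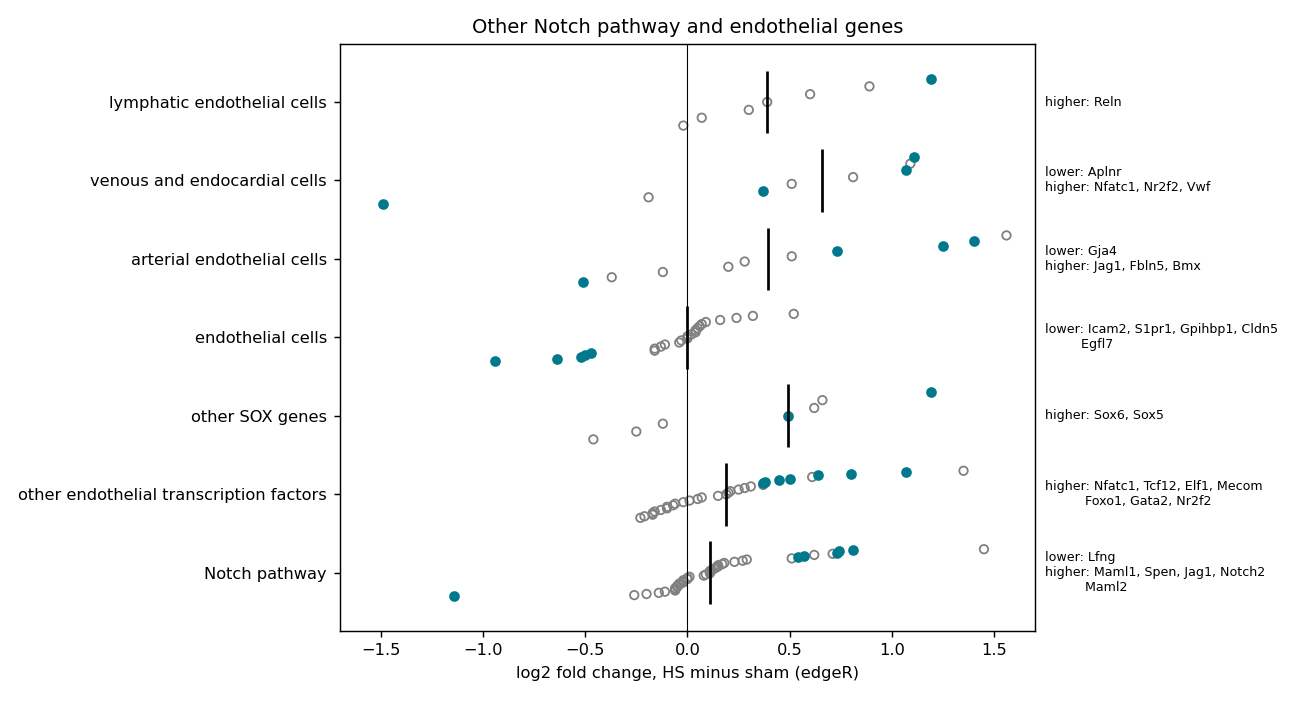
Log2 fold change (HS minus sham, edgeR) of genes that are not among the 10, in 7 lists. Filled points passed an unadjusted p under 0.05 and are named at the right, open points did not, and black bars are medians. In the Notch list Lfng lies alone at -1.14, and in the endothelial list the 5 filled points all lie below 0 with the median at 0.00.

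Other endothelial transcription factors were higher more often than lower. Of 31 tested, 7 were higher and none lower at an unadjusted p under 0.05 in edgeR, with a median log2 fold change of 0.19, beside 8.83% and 4.76% of all genes. With all hearts none passed the adjusted threshold in edgeR or limma-voom and 1 (Nr2f2) did in DESeq2 and, without HS heart 2, in edgeR. Nr2f2, the venous factor COUP-TFII, had 8.55 to 10.7 CPM in sham and 22.1, 12.1 and 24.4 CPM in HS, a log2 fold change of 1.07 (edgeR adjusted p = 0.253). Its level was highest in HS hearts 1 and 3, the hearts in which Myl7 was abundant. With HS heart 2 as the single HS heart the log2 fold change of Nr2f2 was 0.38. The part of atrial RNA in the Nr2f2 values was not tested. Mecom (0.50, adjusted p = 0.262), Foxo1 (0.64, adjusted p = 0.298) and Tcf12 (0.38, adjusted p = 0.301) followed Nr2f2. Foxo1 lost the unadjusted threshold without sham heart 3 and with HS heart 2 alone, and Tcf12 without sham heart 1 or sham heart 3. The 7 relatives of Erg in the ETS family had 1 gene higher and a median of -0.07. The 8 partners and relatives of Tal1, such as Lmo2, Ldb1 and the E proteins, had 2 higher and a median of 0.24, against 0.91 for Tal1. Without sham heart 3 the 7 became 2, and without HS heart 3 there were 6 higher and 1 lower. The shares of all genes in those 2 fits are not given here.

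Of 12 SOX genes listed outside the SOXF group, 7 were tested, and their median log2 fold change was 0.49. At the unadjusted threshold in edgeR 2 were higher and none lower, beside 8.83% and 4.76% of all genes. Sox5 had 1.19 (adjusted p = 0.309) and Sox6 0.49 (adjusted p = 0.322), and both lost the unadjusted threshold without sham heart 1, sham heart 3 or HS heart 1, Sox6 also without HS heart 3. Sox5 lost it in limma-voom too, and both lost it with HS heart 2 alone. Sox4 was at -0.46 (adjusted p = 0.523), and with a replicate block it was lower at the unadjusted threshold, at -0.51. None of the 7 passed an adjusted p under 0.05 in edgeR, DESeq2 or limma-voom with all hearts, and Sox5 passed in edgeR without HS heart 2.

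Genes reported as targets of SOXF factors or ERG did not move as 1 block. Of 9, 2 were lower and 1 higher at the unadjusted threshold in edgeR, beside 4.76% and 8.83% of all genes. The median log2 fold change was 0.04. Icam2, an adhesion molecule of endothelial junctions, was at 10.2, 10.9 and 9.58 CPM in the sham hearts and 5.92, 6.28 and 3.71 CPM in the HS hearts. It was lowest in HS heart 3, and its log2 fold change was -0.94 (standard error 0.20, edgeR adjusted p = 0.211). Cldn5, the claudin of endothelial tight junctions, had -0.50 (adjusted p = 0.293) and lost the unadjusted threshold with HS heart 2 alone. Vwf, von Willebrand factor, had 1.11 (adjusted p = 0.346) and lost the unadjusted threshold without HS heart 3, sham heart 2 or sham heart 3, without HS hearts 1 and 3, with no filter on low counts, with a replicate block and in limma-voom. Cdh5 was at 0.04 (adjusted p = 0.835). With all hearts and the filter none of the 9 passed the adjusted threshold in edgeR or limma-voom, and Icam2 did in DESeq2 and, with no filter or without HS heart 3, in edgeR.

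In the wider endothelial list the genes past the threshold were all lower. Of 24 markers 5 were lower and none higher at an unadjusted p under 0.05 in edgeR, beside 4.76% and 8.83% of all genes, and the median log2 fold change was 0.00. Beside Icam2 and Cldn5 the lower genes were Egfl7 (-0.47, adjusted p = 0.258), Gpihbp1 (-0.52, adjusted p = 0.297) and S1pr1 (-0.64, adjusted p = 0.330), the last named after its value was seen. Gpihbp1 and S1pr1 each lost the unadjusted threshold without sham heart 3, HS heart 1 or HS heart 2, S1pr1 also without HS hearts 1 and 3. The count of lower genes was 11 without HS heart 3 and 3 without sham heart 3, HS heart 1 or HS heart 2. The shares of all genes lower in those fits are not given here, so these counts are not read further. No marker passed the adjusted threshold in edgeR or limma-voom with all hearts and the filter, and Icam2 passed in DESeq2 and, with no filter, in edgeR. In edgeR Icam2, Gpihbp1 and Ly6c1 passed without HS heart 3, all lower. With HS hearts 1 and 3 left out, Gpihbp1 and Ly6c1 passed, which compares the single HS heart 2 with sham on the spread of the sham hearts. Pecam1 had a log2 fold change of 0.24 with all hearts and of -0.26 without HS hearts 1 and 3.

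Genes of the vessel types of endothelium were read beside Notch1, Dll4 and Tal1. At an unadjusted p under 0.05 in edgeR, 8.83% of all genes were higher and 4.76% lower. Of 10 arterial markers 3 were higher and 1 lower at the unadjusted threshold, and Bmx, a kinase of arterial endothelium, had a log2 fold change of 1.40 (edgeR adjusted p = 0.256) and lost the unadjusted threshold with HS heart 2 alone. Of 8 venous and endocardial markers 3 were higher and 1 lower. Aplnr, the apelin receptor, was the lower gene, at 37.3, 31.7 and 27.9 CPM in the sham hearts and 15.0, 16.0 and 3.36 CPM in the HS hearts (-1.49, edgeR adjusted p = 0.316), and it lost the unadjusted threshold without sham heart 1 or sham heart 2 and with no filter on low counts. Of 7 lymphatic markers 1 was higher, Reln (1.19, adjusted p = 0.254). With all hearts none of these 3 lists had a gene past the adjusted threshold in edgeR or limma-voom, and DESeq2 called Bmx, Fbln5, Nr2f2 and Reln higher. In edgeR Aplnr passed without HS heart 3, and Jag1, Fbln5, Nr2f2 and Npr3, all higher, passed without HS heart 2. With HS heart 2 as the single HS heart, on the spread of the sham hearts, Aplnr and Lyve1 passed, both lower. The venous and endocardial medians were 0.72, -0.29 and 1.07 in HS hearts 1 to 3, high in the hearts with high Myl7, and the arterial ones were 0.14, -0.03 and 0.63.

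Markers of other cell types also differed between the HS hearts. The 5 tested atrial markers had medians of 5.66, 0.19 and 5.83 in HS hearts 1 to 3 and summed to 106 to 120 CPM in sham and 3635, 152 and 2664 CPM in HS. For 8 fibroblast markers the medians were 0.57, 0.05 and 1.20, and for 8 ventricular cardiomyocyte markers -0.08, 0.08 and -0.20. The 9 mural cell markers (smooth muscle and pericyte genes) had medians of 0.52, 0.19 and 0.35. Of these, 5 were higher and 1 lower at the unadjusted threshold, beside 8.83% and 4.76% of all genes. Acta2, smooth muscle actin, was at 72.9 to 97.4 CPM in sham and 236, 145 and 205 CPM in HS (edgeR adjusted p = 0.158). The 2 tested adipocyte markers had medians of 4.71, -0.32 and 2.42, and 7 markers of macrophages and other leukocytes -0.25, -0.12 and -0.33. In HS heart 2, where Myl7 had 4 counts, the log2 differences from sham were -1.41 for Sox18, 0.59 for Tal1 and 0.38 for Notch1. The part of these cell types in the values of the 10 genes was not tested.

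**Figure D5:**
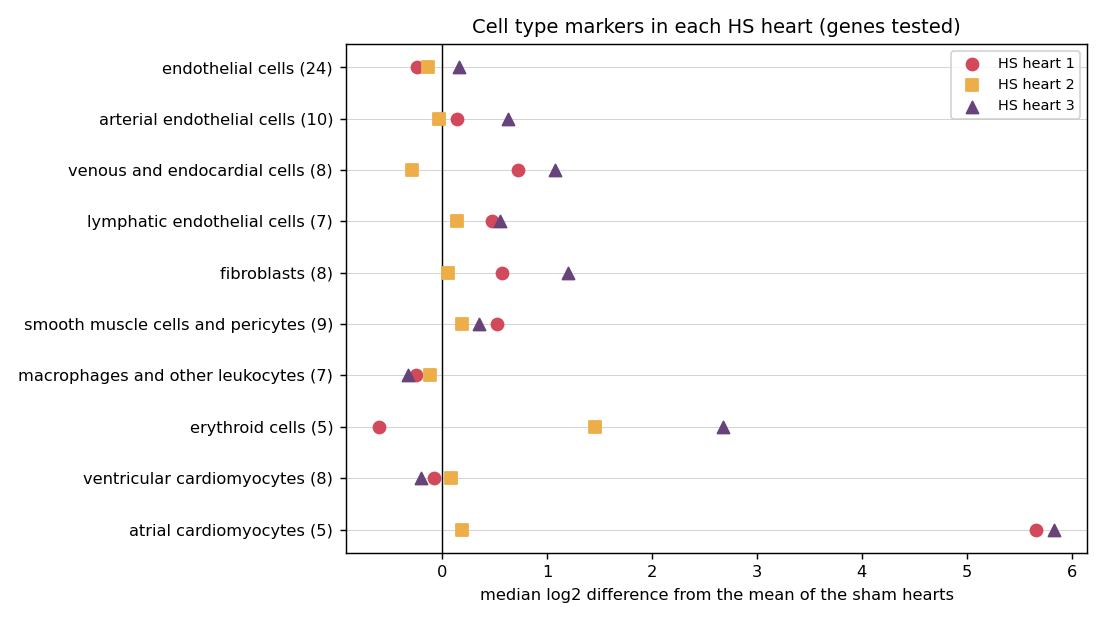
Median log2 difference of cell type markers from the mean of the sham hearts in each HS heart, with the number of tested genes in brackets. Atrial markers lie at 5.66 and 5.83 in HS hearts 1 and 3 and at 0.19 in HS heart 2, and endothelial markers between -0.24 and 0.16.

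Genes with a pattern like the 10 were sought by the Pearson correlation of log2 CPM with the mean standardized profile of the 10, over the 6 hearts and 10810 genes. The closest were Rasip1 (0.994), Tnks1bp1 (0.994), P2ry1 (0.978), Fam98c (0.976) and Tcirg1 (0.973). Rasip1, an endothelial Ras-interacting protein gene that is among the 24 markers, was at 13.6, 14.9 and 12.2 CPM in the sham hearts and 10.1, 12.3 and 14.7 CPM in the HS hearts. With 6 libraries that share their scaling, such values describe these hearts only. The mean profile is low in HS heart 1 and does not stand for Sox18, Tal1 or Notch1, whose groups were apart.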

How the data were processed

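Poly(A)-selected RNA of 3 sham and 3 HS mouse hearts was sequenced, 1 library per heart. The authors used fastp and Hisat2 and deposited estimated counts per transcript, unscaled and unpooled, and the submitters' processing notes name mm10. The counting program, its annotation and how it handled strand were not given in the sources used here. Of the deposited values 30.257% were not whole numbers.

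The 149132 transcript values were added up within 57180 genes, and sums were rounded. Groups were taken from the sample titles, and nothing in the labels tells of litter, day or batch, so the error given is the spread between these hearts, which may be partly technical. Genes with enough counts (edgeR filterByExpr, minimum 10, total 15) were tested, 14717 in all. TMM normalization and the quasi-likelihood test of edgeR 4.0.16 in R 4.3.3 (limma 3.58.1) with group as the only term and Benjamini-Hochberg adjustment over all tested genes gave fold changes, and CPM are TMM-scaled. The tests were checked on simulated counts. Depth of 22098531 to 25855918 counts puts a gene with 0 counts below 0.1083 to 0.1525 CPM (3 counts, counting error only). CPM per kb divides by the merged exon length in GENCODE vM21 on GRCm38, the assembly also called mm10.

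The 10 genes and all lists were chosen with earlier results of these data known. From each list up to 4 genes with the smallest unadjusted p could be named, with defining markers and the 5 genes closest to the mean profile of the 10. Some list genes outside this rule, among them Ly6c1, Npr3 and Lyve1, were named after their values were seen. Alternatives were DESeq2 1.42.0 and limma-voom, other normalizations and filters, a replicate block, leaving out each heart, and leaving out HS hearts 1 and 3. The paper's rat blood, patient and cell line data were not analysed here. Removing reads that failed cleaning, spreading shared reads over transcripts and rounding all act before these values and could move genes of low count most.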

Additional observations from a re-analysis of the deposited data

How the results depend on the processing

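Sox18 below all sham hearts and Tal1 and Notch1 above them held under each alternative run. Groups that are apart stay apart when hearts are left out, short of a shift in scaling, so those runs could not test this. The 10 genes were also chosen by these same levels. Their median log2 fold change stayed between -0.25 and -0.04 when 1 heart was left out. The number of the 10 genes with all HS hearts below all sham hearts was 1 in the analysis given above. It was 2 with column totals or the upper quartile as scaling and 1 to 4 when 1 heart was left out. The share of all genes apart is not given for these alternatives, so their counts are not read further. Genes called lower and higher over all genes at an adjusted p under 0.05 were 1 and 8 in edgeR with TMM. The lower calls were 4 with column totals, 2 with the upper quartile and 2 with limma-voom. They were 27 lower and 57 higher with no filter, 0 and 4 with at least 10 counts in every heart, 77 and 275 with DESeq2, and 52 and 77 without HS hearts 1 and 3, where HS heart 2 is the single HS library and is assumed to vary as the sham hearts do. Leaving out 1 heart gave 0 to 43 lower and 2 to 271 higher calls. Endothelial markers lower at an unadjusted p under 0.05 numbered 3 to 11 when 1 heart was left out and 8 without HS hearts 1 and 3, those higher numbered 0 to 1, and their median ran from -0.20 to 0.08. For the other endothelial factors, leaving out 1 heart gave 2 to 9 higher, 0 to 1 lower and a median of 0.07 to 0.22, and leaving out HS hearts 1 and 3 gave 1 lower. For the other Notch genes it gave 4 to 7 higher, 1 to 2 lower and a median of 0.06 to 0.11, and without HS hearts 1 and 3 there were 3 higher, 3 lower and a median of 0.05. Without HS hearts 1 and 3 the log2 fold change reversed for Pecam1 (-0.26) and Myl7 (-0.91). Settings that leave out hearts have fewer hearts by construction, and beyond that the cause was not tested. Shares of all genes at the unadjusted threshold are not given for those settings, so their counts of list genes are not read further. Nothing in the labels pairs hearts by replicate number. Deviations of same-numbered hearts correlated at -0.061, 0.132 and 0.012, and not every heart correlated best with its own number. With 3 hearts a group these values cannot decide whether hearts were paired. With the numbers as a replicate block the calls stayed at 1 lower and 8 higher, the median of the 10 genes was -0.19, and Sox18, Tal1 and Notch1 were at -1.57, 0.83 and 0.65. Depth put at least 66 counts behind each value of the 10 genes. Their standard errors were largest for Notch4, where the HS hearts spread most, and 3 hearts a group limit all values.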
